A study of Homo sapiens with 50 samples.

Results

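The interleukin-4 receptor and STAT6 pathway was followed through 9 genes of 25940 named on the array: *IL4R*, *IL13RA1*, *JAK1*, *JAK2*, *JAK3*, *TYK2*, *STAT6*, *IRS1* and *IRS2*. They were chosen as the receptor chains, the kinases, the transcription factor and the adaptors of this pathway, and every non-control probe that the array files name for them was taken, 14 of 34127 probes. Of these 14 probes, 12 passed the background criterion (20100 of all probes passed) and were tested. Both probes that did not pass belong to *IL4R*.

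Interleukin-4 binds a receptor built around the IL4R chain, which pairs with the common gamma chain in blood cells and with IL13RA1 in most other cells, and the second pair also binds interleukin-13. Kinases of the Janus family that sit on these chains phosphorylate the receptor. STAT6 then docks on it, is phosphorylated, and moves as a dimer to the nucleus, where it binds DNA and turns genes on. IRS1 and IRS2 dock on the same receptor, as on the insulin receptor, and lead to PI3 kinase and AKT. In epithelial cells of the airway the pathway is best known for its part in mucus production and allergic inflammation.

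Gene expression was measured in H1299 cells, a human non-small cell lung carcinoma line, and in H1299shRAD9 cells, the same line with a stably integrated retroviral vector whose short hairpin RNA targets *RAD9*. Within each line there were 5 groups of 5 samples, all taken 4 h after sham treatment or 1 Gy of α particles: sham-irradiated controls (CTL), directly irradiated cells (DBP) from dishes whose bystanders responded with micronuclei and those bystanders (BP), and directly irradiated cells (DBN) from dishes whose bystanders did not respond and those bystanders (BN). The bystander groups were picked by their micronucleus response, and the hairpin line comprised 2 stable transfectants that were used interchangeably, without a label saying which gave each sample. Each sample was hybridized alone to a 1-color Agilent array. A level is the log2 processed signal of a probe minus the median of its array, so that 1 unit is a doubling, and 0 is the middle of the array. Levels of different probes are not comparable with each other.

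The share of probes well above background ran from 55.5% to 83.7% over the 50 arrays, and the number of arrays limits the precision. *RAD9A*, the gene targeted by the hairpin, had a mean level of 3.14 ± 0.18 in H1299shRAD9 CTL and 3.45 ± 0.13 in H1299 CTL (SD, n = 5 each), a difference of -0.30 (exact permutation test, 2-sided, p = 0.0159), and differences of -0.31, -0.10, 0.06 and -0.08 in DBP, BP, DBN and BN (exact permutation p = 0.0873, 0.444, 0.802 and 0.611). The probes of the carcinoma markers *KRT8*, *KRT18*, *VIM*, *CDH2* and *AXL* were well above background on all arrays, and *HBB*, *LUM* and *COL1A2* on at most 2 of 25 in a line. Of 7 blood cell markers 4 were tested, and *PTPRC* was called higher in H1299shRAD9 CTL, by 1.26 (limma, adjusted p = 0.0127). The part of such markers in the results was not tested. Within H1299shRAD9 the samples fell into 2 sets by replicate number. Over 18888 probes, replicates 1 and 2 deviated together from the mean of the line (r = 0.78), as did replicates 3, 4 and 5 (r = 0.47 to 0.76), while r between the sets was -0.89 to -0.75, a sign that taking deviations from a shared mean favors. In H1299 the signs were the same and most values smaller, with r = 0.13 for replicates 1 and 2, 0.11 to 0.70 among replicates 3, 4 and 5, and -0.76 to -0.39 between them. Results that rest on either set are given with and without it. No slide held CTL arrays of both lines, nor DBP, DBN or BN arrays of both, so that slide and cell line cannot be told apart there.

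The probes on which the results turn are shown by the leading 30 of their 60 bases (from the array files), since genes with a pair of probes gave unequal answers and each value belongs to the stretch its probe reads. Positions are those of the whole probe in hg19.
STAT6 A_23_P47879 (chr12:57489651-57489710, minus strand): caagggctgagattcttcgtgtatagctgt
JAK3 A_24_P59667 (chr19:17935597-17935656, minus strand): tgaggcctcagtacagagggggctctggaa
JAK3 A_23_P329112 (chr19:17937280-17937339, minus strand): tcagtggggctctctgagtcctggcccaaa
IL13RA1 A_24_P288685 (chrX:117892164-117895118, plus strand): aaattaaaccatccttcaatatagtgcctt
IL13RA1 A_24_P280113 (chrX:117928406-117928465, plus strand): acatttttggtagtcttcaaccagggattg
IRS1 A_24_P225679 (chr2:227600148-227600207, minus strand): tttttcctgtaagacaataggccatgttaa
IRS1 A_24_P802145 (chr2:227596618-227596677, minus strand): cttggcatttaaatctctctttgcttatgc
TYK2 A_23_P141917 (chr19:10464877-10465213, minus strand): tgaaaaagatccgagatctgggcgagggtc
The *IL13RA1* probe A_24_P288685 spans 2955 bases of the genome and the *TYK2* probe 337 bases, more than their own length, so both cross a splice junction. By the transcript positions given in the array annotation, the *JAK3* probe A_24_P59667 starts at base 5370 and A_23_P329112 at base 3687, and the *IL13RA1* probes start at bases 677 (A_24_P288685) and 3915 (A_24_P280113) of the same transcript.

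*STAT6*, the transcription factor at the end of the pathway, took 3 separate levels over the 50 arrays. In H1299 CTL the 5 levels were 1.20, 1.24, 1.83, 1.28 and 1.33, and all 25 H1299 arrays lay between 0.78 and 2.0, whatever the irradiation. In H1299shRAD9 CTL, replicates 1 and 2 were at -2.93 and -2.54, not well above background, and replicates 3, 4 and 5 were at 3.42, 3.24 and 3.10. The H1299shRAD9 samples thus lay on both sides of H1299, with none within its range.

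The same arrangement was present in every irradiated and bystander group. H1299shRAD9 replicates 1 and 2 were at -2.57 and -2.71 (DBP), -3.78 and -3.66 (BP), -1.65 and -0.84 (DBN), and -3.66 and -3.58 (BN). Only the 2 DBN arrays of these 10 were well above background. Replicates 3, 4 and 5 of all 5 groups, 15 arrays, were well above background and lay between 2.95 and 3.52. A slide held arrays of both sets: H1299shRAD9 BN replicate 2 read -3.58 and DBN replicate 2 read -0.84 on it, beside 2.95 for BP replicate 3 and 3.11 for DBP replicate 3.

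**Figure D1:**
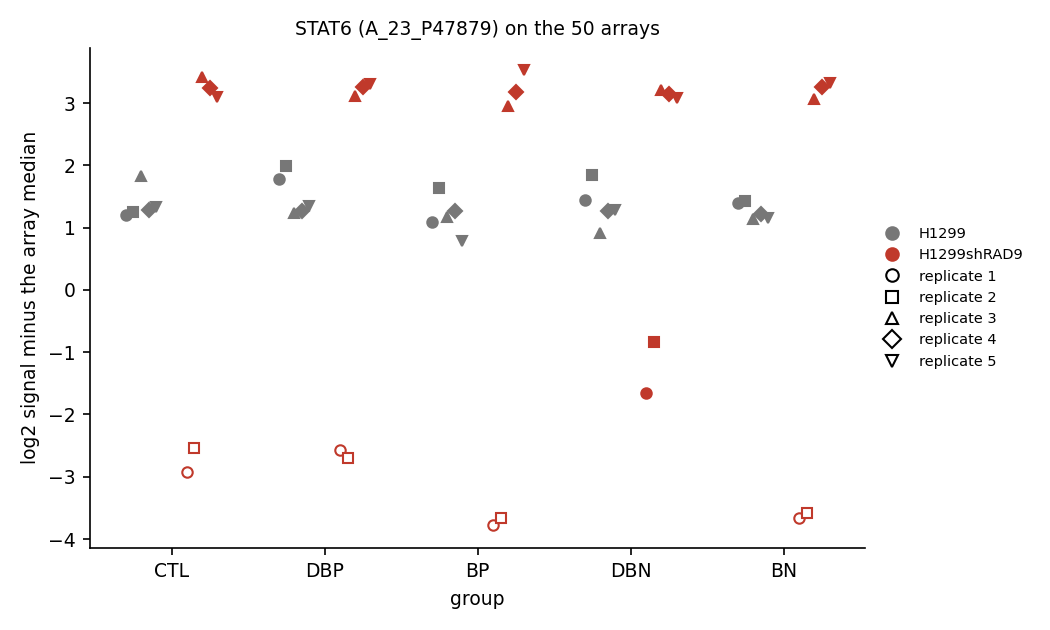
Level of the *STAT6* probe on each of the 50 arrays (vertical axis, log2 signal minus the array median) by group (horizontal axis). Gray symbols are H1299, red symbols are H1299shRAD9, the shape gives the replicate number, and open symbols were not well above background. H1299 stays between 0.78 and 2.0, H1299shRAD9 replicates 3, 4 and 5 between 2.95 and 3.52, and replicates 1 and 2 between -3.78 and -0.84.

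Averaged over 5 samples, the lines did not differ in *STAT6* beyond their spread. The mean level was 0.86 ± 3.28 in H1299shRAD9 CTL and 1.38 ± 0.26 in H1299 CTL (SD, n = 5 each; exact permutation test, 2-sided, p = 0.611), and the differences in DBP, BP, DBN and BN were -0.64, -0.75, 0.04 and -0.79 (exact permutation p = 0.548, 0.524, 0.944 and 0.524; the smallest that 5 against 5 allows is 0.00794). Without H1299shRAD9 replicates 1 and 2 the CTL difference was 1.87, and the level of the rest was 3.67-fold that of H1299. Without replicates 3, 4 and 5 it was -4.11, and since neither remaining array was well above background, H1299 was at least 17.3-fold higher. These are descriptions with no test, because the sets were told apart after their levels were seen. That bound is the mean of the 5 H1299 levels over that of the 2 dim arrays, each taken at its own signal or at the lowest signal well above background on its array, whichever was higher. In the other groups the fold of replicates 3, 4 and 5 over H1299 was 3.25 (DBP), 4.08 (BP), 3.48 (DBN) and 3.86 (BN). H1299 was at least 14.7-fold (DBP), 30.03-fold (BP) and 29.6-fold (BN) above replicates 1 and 2, and 6.04-fold in DBN, where they were measured. The study itself selected *STAT6* on these samples, so its direction has no independent support here. In the authors' processed table *STAT6* has a value on 2 of the 10 arrays of replicates 1 and 2 and on all others, and the CTL difference from that table, without the samples that have no value in it, was 1.70.

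*STAT6* had no called difference between irradiated or bystander cells and CTL in either line. In H1299shRAD9 the paired differences averaged 0.02 (DBP), -0.42 (BP), 0.53 (DBN) and -0.38 (BN), and in H1299 0.14, -0.19, -0.03 and -0.11, with limma adjusted p from 0.432 to 1.000.

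The comparison of unirradiated H1299shRAD9 with H1299 asks what differs between the lines before any exposure. The H1299 cells were untransfected, while the hairpin line was selected with puromycin as stable clones. The hairpin, the vector, the selection and the clone therefore cannot be told apart here. A probe was called at p under 0.005 and adjusted p under 0.1 (limma). Of the 12 member probes 3 were called, all lower in H1299shRAD9: *JAK3* A_24_P59667, *IL13RA1* A_24_P288685 and *TYK2*. Among all 20100 probes 14.2% were called, 4.82% lower and 9.35% higher. Of the 12 member probes 8 were lower, with a median log2 difference of -0.28, against 0.12 over all probes. In the other states the share of all probes called between the lines was 5.98% (DBP), 7.74% (BP), 4.44% (DBN) and 8.48% (BN), and 1, 1, 1 and 2 member probes were called.

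**Figure D2:**
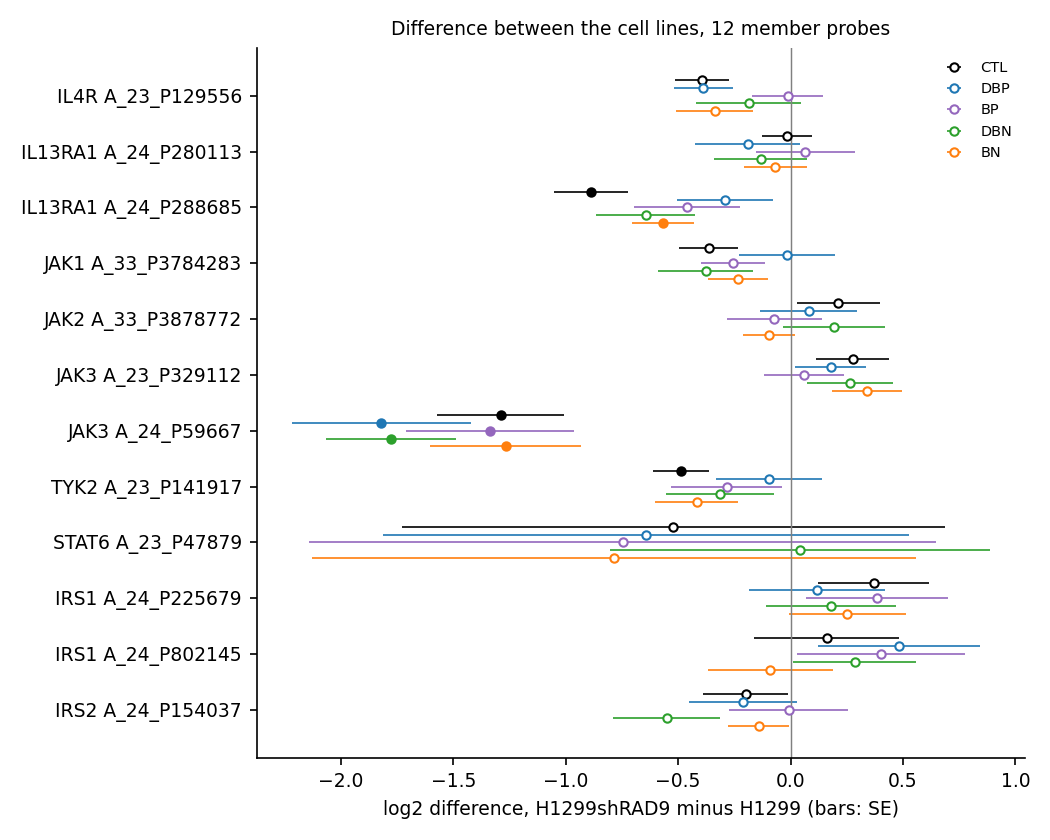
Difference between the lines (horizontal axis, H1299shRAD9 minus H1299, log2) for the 12 tested probes (vertical axis), by state in color, with bars of 1 SE and filled symbols for called differences. *JAK3* A_24_P59667 lies between -1.82 and -1.27 in all 5 states, and the bars of *STAT6* are the widest.

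*JAK3*, a Janus kinase best known on the common gamma chain of lymphocytes, was the member called in every state, by one of its probes. On A_24_P59667 the H1299 CTL levels were 0.93, 0.77, 0.67, 0.78 and 0.32, and the H1299shRAD9 CTL levels were -1.35, -1.34, -0.01, 0.07 and -0.34, so the groups did not overlap. The difference was -1.29 ± 0.28 (SE; limma, adjusted p = 0.0135), which puts H1299shRAD9 at 40.9% of H1299. In DBP the levels were 2.33, 2.26, 0.71, 0.53 and 0.55 in H1299 and -0.92, -1.22, -0.06, -0.16 and -0.36 in H1299shRAD9. DBP, BP and DBN did not overlap between lines either, while in BN the highest H1299shRAD9 sample (0.08) lay above the lowest H1299 sample (0.06). The share of all probes whose groups do not overlap was not counted, so such separation, here and for the members below, only describes the levels. The differences were -1.82 ± 0.40 (DBP), -1.34 ± 0.37 (BP), -1.78 ± 0.29 (DBN) and -1.27 ± 0.34 (BN; limma, adjusted p = 0.0331, 0.0567, 0.00906 and 0.0429). The CTL and DBN calls were kept with any one replicate left out. The DBP call was lost without replicate 1 or 2 (-1.46 and -1.40), the BN call without replicate 1 or 2 (-0.99 and -0.95), and the BP call without replicate 1, 3 or 5 (-1.30, -1.52 and -1.47), where the difference was -0.78, still called, without replicate 2.

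Both sets of H1299shRAD9 samples were lower on this probe, by unequal amounts. Replicates 1 and 2 lay between -1.49 and -0.92 on their 10 arrays, and replicates 3, 4 and 5 between -0.40 and 0.08 on their 15, the 2 sets again apart. Without replicates 1 and 2 the CTL difference was -0.79, and without replicates 3, 4 and 5 it was -2.04, again as a description. On the only slide that held both lines in the same state, BP replicate 1 of H1299shRAD9, from the lower set, and BP replicate 5 of H1299 differed by -1.44. Between the same arrays, 1 per line, the difference was 0.58 on *IL13RA1* A_24_P288685, against the direction of its call between the lines, and -0.77 on *TYK2*. No such pair was available for replicates 3, 4 and 5 of H1299shRAD9.

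The other *JAK3* probe showed no called difference. On A_23_P329112 the H1299 CTL levels were -0.19, 0.37, -0.54, -0.22 and -0.36, and those of H1299shRAD9 0.12, -0.05, 0.34, 0.10 and -0.06. The difference was 0.28 ± 0.16 (SE; limma, adjusted p = 0.238) with a 95% interval of -0.08 to 0.63, which does not include -1.29, and in the other states it was 0.06 to 0.34, not called. The *JAK3* difference is therefore that of 1 of 2 probes.

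*IL13RA1*, the chain that pairs with IL4R outside blood cells, showed the same split between its probes. On A_24_P288685 the H1299 CTL levels were 1.56, 1.05, 1.53, 1.36 and 1.25, all above the H1299shRAD9 CTL levels of 0.74, 0.70, -0.08, 0.51 and 0.44. The difference was -0.89 ± 0.16 (SE; limma, adjusted p = 0.0072), to 54.0% of H1299, and it was called in BN as well (-0.57 ± 0.14, adjusted p = 0.0335, again without overlap), where it was lost without replicate 3, 4 or 5 (-0.49, -0.50 and -0.55). In DBP, BP and DBN the differences were -0.29, -0.46 and -0.64, not called, and the groups overlapped. On A_24_P280113 the levels lay between 5.64 and 6.04 in H1299 CTL and between 5.72 and 5.92 in H1299shRAD9 CTL, and the difference was -0.02 ± 0.11 (95% interval -0.26 to 0.23; limma, adjusted p = 0.930).

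**Figure D3:**
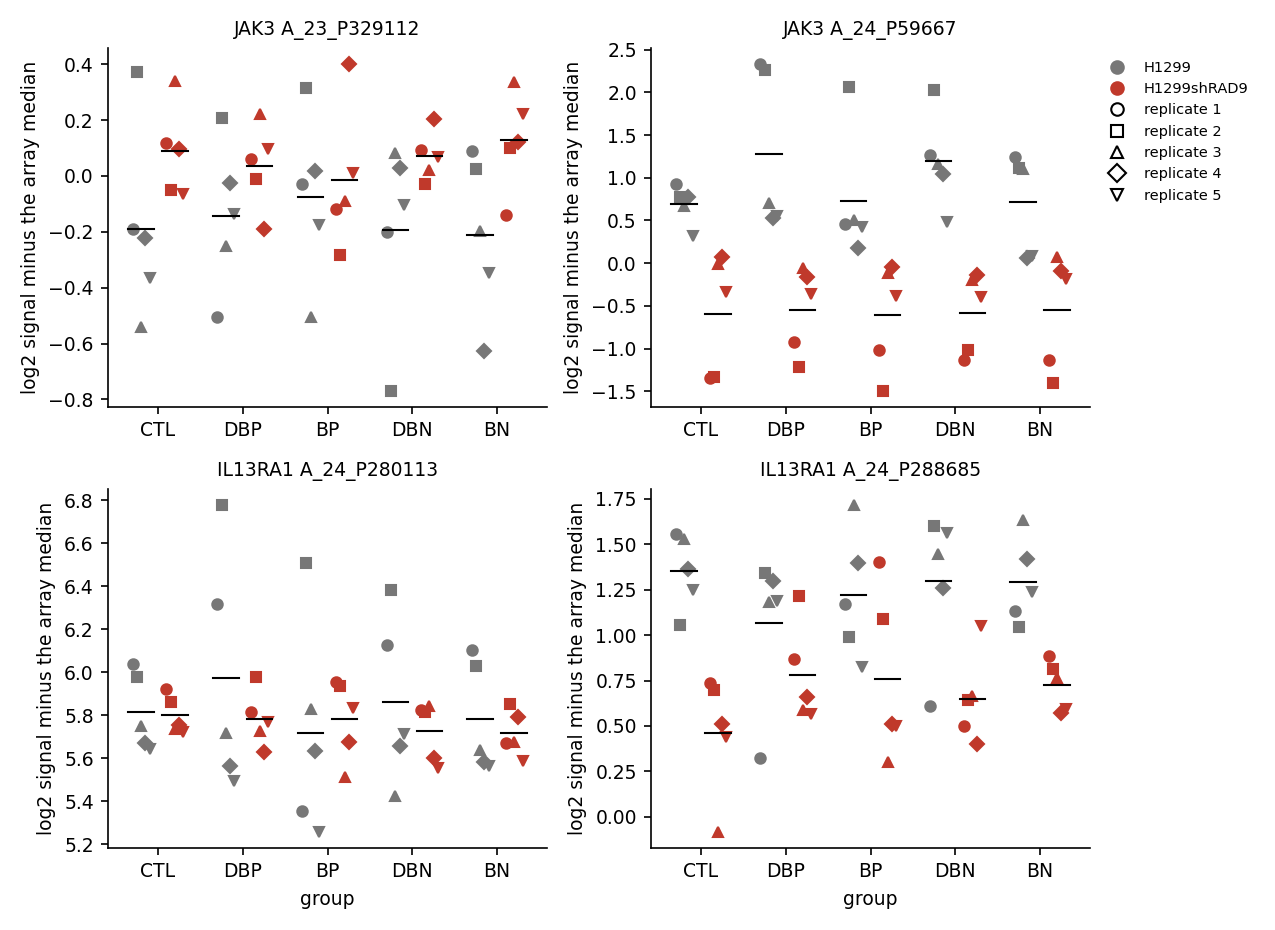
Levels (vertical axes, log2 signal minus the array median) of both *JAK3* probes and both *IL13RA1* probes in the 10 groups (horizontal axes), with H1299 in gray, H1299shRAD9 in red, shapes for replicate numbers and a line at each group mean. On *JAK3* A_24_P59667 and *IL13RA1* A_24_P288685 the H1299shRAD9 CTL means, -0.59 and 0.46, lie below the H1299 means of 0.69 and 1.35, while the other probe of each gene shows no called difference.

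*TYK2*, the Janus kinase found on IL13RA1 among other receptors, was lower in unirradiated H1299shRAD9. The CTL levels were 0.82, 1.13, 1.24, 1.08 and 1.37 in H1299 and 0.59, 0.43, 0.83, 0.63 and 0.73 in H1299shRAD9. A single sample of each line crossed the other group. The difference was -0.49 ± 0.13 (SE; limma, adjusted p = 0.0237), to 71.4% of H1299, and the differences of -0.09, -0.28, -0.31 and -0.42 in DBP, BP, DBN and BN were not called. The call was lost when any of replicates 2, 3, 4 or 5 was left out, with differences of -0.50 to -0.43, and without replicates 1 and 2 of H1299shRAD9 the difference was -0.40.

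The remaining receptor and kinase probes had no called difference between lines. *IL4R*, the signaling chain of the receptor, read 5.54, 5.48, 5.54, 5.33 and 5.56 in H1299 CTL and 5.09, 4.99, 5.46, 4.92 and 5.02 in H1299shRAD9 CTL on A_23_P129556 (chr16:27375999-27376058), a difference of -0.39 ± 0.12 (SE; limma, adjusted p = 0.0403) that missed the threshold on the unadjusted p. The DBP difference was also -0.39 (limma, adjusted p = 0.120), there with all H1299shRAD9 samples below all H1299 samples, but in BP it was -0.01. The other *IL4R* probes, A_33_P3349045 and A_33_P3395947, were each well above background on 5 of the 50 arrays. *JAK1*, the kinase held by IL4R itself, differed by -0.36 ± 0.13 (limma, adjusted p = 0.0714) in CTL, and *JAK2*, which serves many cytokine receptors, by 0.21 ± 0.18 (limma, adjusted p = 0.426).

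**Figure D4:**
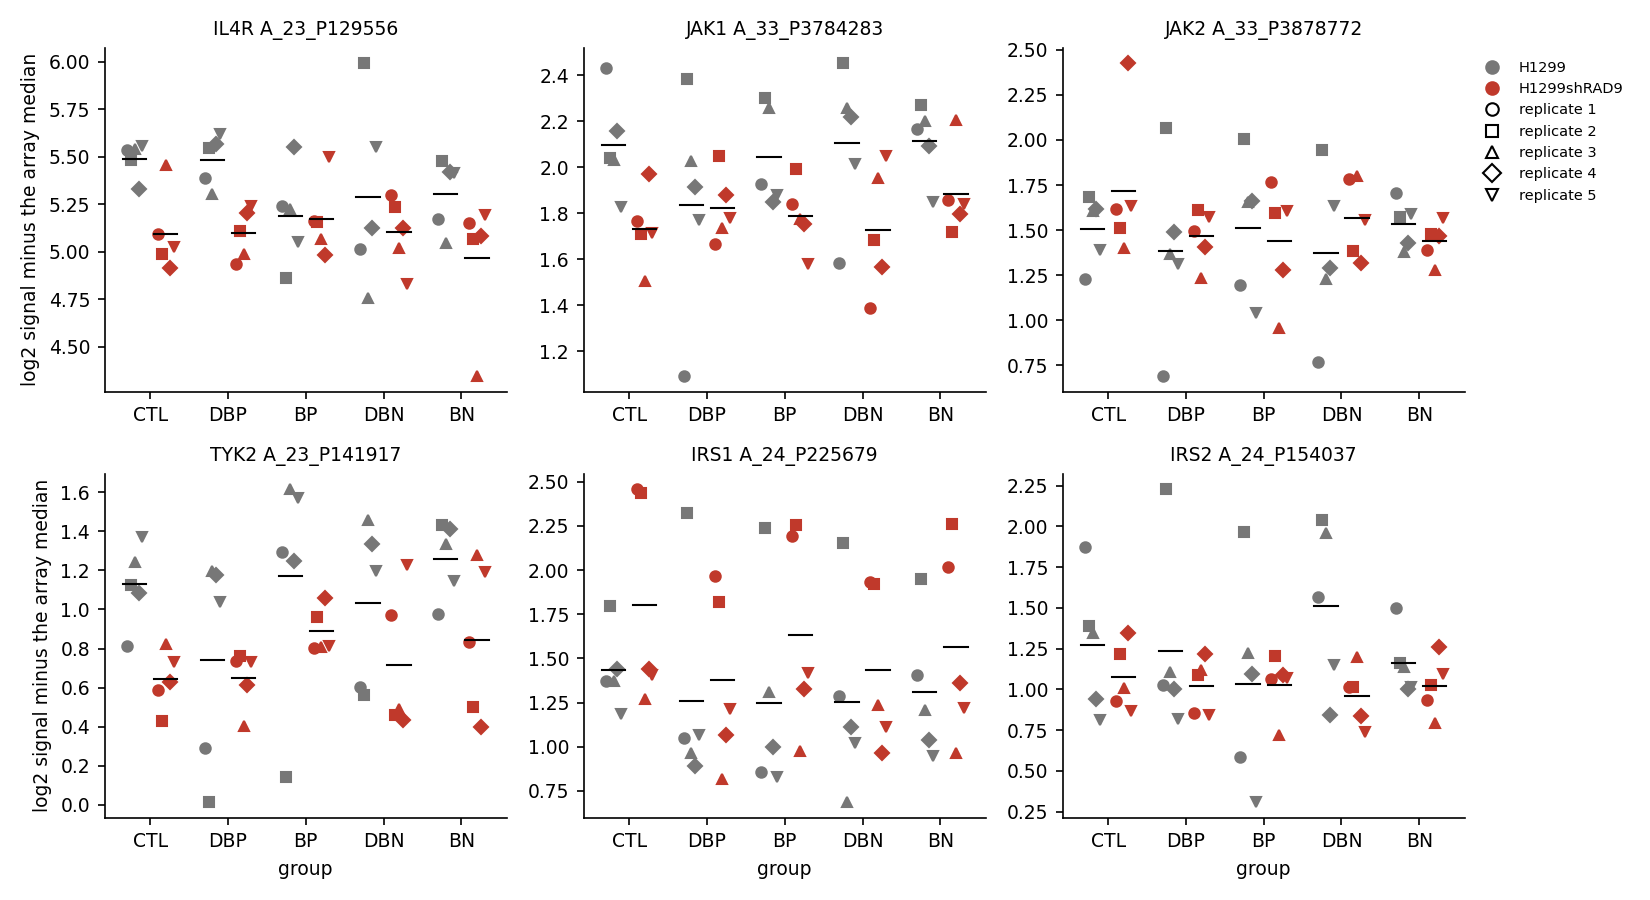
Levels (vertical axes, log2 signal minus the array median) of *IL4R*, *JAK1*, *JAK2*, *TYK2*, *IRS1* and *IRS2* probes in the 10 groups (horizontal axes), with H1299 in gray, H1299shRAD9 in red, shapes for replicate numbers and a line at each group mean. *IRS1* in H1299shRAD9 separates by replicate number (1.82 to 2.46 in replicates 1 and 2, 0.82 to 1.44 in the others), and *TYK2* in H1299 has its lowest values, 0.01 and 0.14, on 2 arrays of replicate 2.

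The adaptors did not differ between the lines as a whole, but *IRS1*, the adaptor first known from insulin signaling, followed the 2 sets of H1299shRAD9 samples. On A_24_P225679 the 10 arrays of replicates 1 and 2 lay between 1.82 and 2.46 and the 15 arrays of replicates 3, 4 and 5 between 0.82 and 1.44, the reverse of *STAT6* and without overlap. The H1299 CTL levels were 1.37, 1.80, 1.37, 1.44 and 1.18, and the CTL difference was 0.37 ± 0.25 (SE; limma, adjusted p = 0.299). As a description, it was -0.06 without replicates 1 and 2 and 1.02 without replicates 3, 4 and 5. In H1299 the probe also stood apart by replicate number, with replicate 2 between 1.80 and 2.32 on its 5 arrays and the other replicates between 0.69 and 1.44. The other *IRS1* probe, A_24_P802145, differed by 0.16 ± 0.32 in CTL (limma, adjusted p = 0.745). *IRS2*, its relative, differed by -0.20 ± 0.19 (limma, adjusted p = 0.470) and in no state was its difference called.

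The comparisons of irradiated and bystander cells with CTL ask what changed within each line by 4 h, and all 4 within a line share its CTL arrays. Samples were paired by replicate number, and a probe was called at p under 0.006 and adjusted p under 0.1 (limma). Over the 4 comparisons of H1299shRAD9, a single member probe was called in a single comparison: *IRS1* A_24_P225679 was lower in DBP. The share of all probes called was 1.57% (DBP; 0.747% lower), 1.45% (BP), 2.78% (DBN) and 0.0299% (BN). In H1299 none of the member probes was called in any comparison (at an unadjusted p under 0.05 there were 1, 1, 2 and 0), where the share of all probes was 0.0348% (DBP), 0 (BP), 0.00995% (DBN) and 0 (BN).

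*IRS1* on A_24_P225679 went from 2.46, 2.44, 1.27, 1.44 and 1.40 in H1299shRAD9 CTL to 1.96, 1.82, 0.82, 1.07 and 1.21 in DBP, lower in 5 of 5 pairs. The paired difference was -0.42 ± 0.09 (SE; limma, adjusted p = 0.0889), to 74.5% of CTL. It was -0.17, -0.37 and -0.24 in BP, DBN and BN, not called. In 2 slides that held arrays of both groups the difference was -0.29 and -0.19. The second probe, A_24_P802145, differed by -0.39 in DBP (limma, adjusted p = 0.180) and -0.57 in DBN (limma, adjusted p = 0.157). On the same 2 slides its DBP difference was 0.34 and -0.58, of opposite signs.

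In H1299 the means of both *IRS1* probes were also below CTL in all 4 groups, from -0.18 to -0.12 on A_24_P225679 and from -0.71 to -0.05 on A_24_P802145, none called. Over both lines 34 of 40 pairs were lower on the first probe and 36 of 40 on the second, pairs that share their CTL arrays and, within a replicate number, resemble each other. The lines' DBP differences on A_24_P225679 were not shown to differ (interaction -0.25, limma, adjusted p = 0.680). The *IRS1* call was lost in 13 of 21 alternatives, with the difference between -0.56 and -0.25, and whenever any one replicate was left out.

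**Figure D5:**
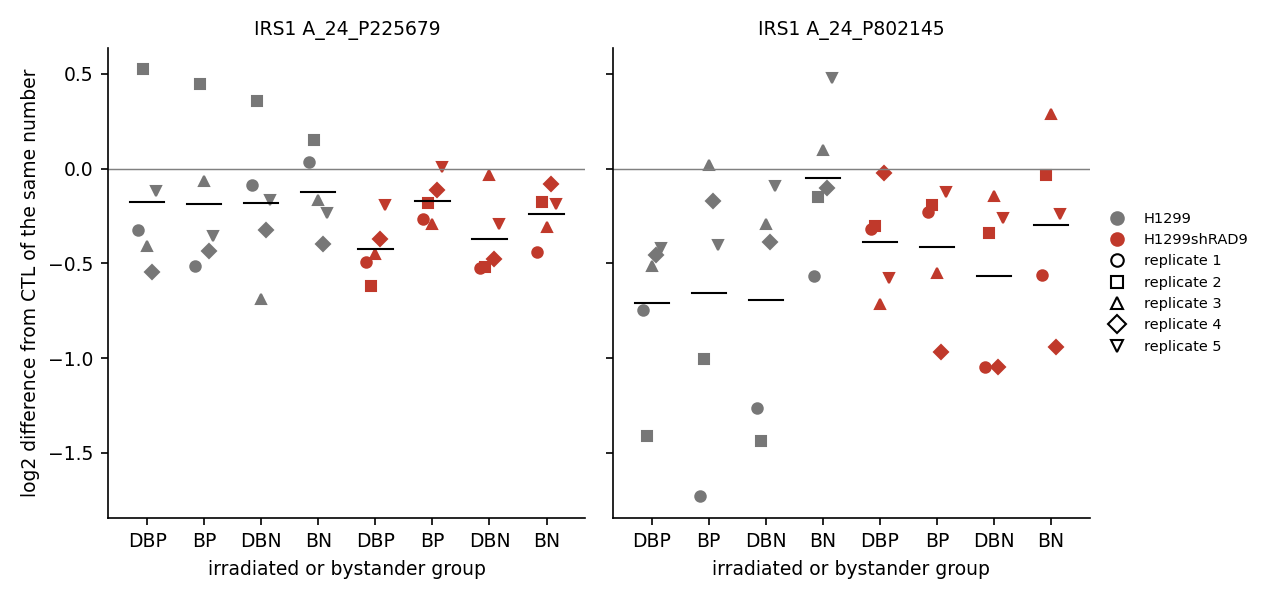
Paired difference of both *IRS1* probes from the CTL array of the same replicate number (vertical axes, log2) in the irradiated and bystander groups of both lines (horizontal axes), with gray symbols for H1299, red for H1299shRAD9 and lines for means. All 8 means of each probe lie below 0, from -0.42 to -0.12 on A_24_P225679 and from -0.71 to -0.05 on A_24_P802145.

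Of the other members, the largest difference in H1299 was that of *JAK3* A_24_P59667, 0.58 in DBP and 0.50 in DBN (limma, adjusted p = 0.734 and 1.000). Replicates 1 and 2 of DBP, at 2.33 and 2.26, stood above the other 3, at 0.53 to 0.71. In H1299shRAD9 the same probe moved by -0.02 to 0.05. *IL13RA1* A_24_P288685 was higher than CTL in 5 of 5 pairs of H1299shRAD9 DBP, by 0.32 (limma, adjusted p = 0.239, not called). Over the 4 interactions of line and irradiation, no probe of 12 was called, nor any of all probes, of which 0% passed (limma, at an unadjusted p under 0.05 there were 1587, 1278, 1400 and 1249, and 1, 1, 0 and 0 of the members).

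Some of the spread in H1299 went with a technical measure of the arrays. A 5′ to 3′ index was taken as the median, over 3418 genes with several probes, of the level of the most 5′ probe minus that of the most 3′ probe. It was lowest, -1.78 to -1.62, on DBP replicates 1 and 2, DBN replicate 2 and BP replicate 2 of H1299, and on these 4 arrays *JAK3* A_24_P59667 was at its highest (2.03 to 2.33) and *TYK2* at its lowest (0.01 to 0.56). Over the 25 H1299 arrays the correlation with the index was -0.93 for *IL13RA1* A_24_P280113, 0.86 for *TYK2*, -0.82 for *STAT6* and -0.79 for *JAK3* A_24_P59667, as a description of arrays that share cells and slides. For *IRS1* A_24_P225679 it was -0.75 in H1299 and -0.38 in H1299shRAD9. The other *IRS1* probe had -0.08 and -0.34, and *IRS2* -0.72 and -0.46. With the index as a covariate, the CTL difference was -1.56 for *JAK3* A_24_P59667, still called, and -0.29 for *TYK2*, not called. Within H1299shRAD9 the index ran from -1.57 to -1.50 in CTL and from -1.47 to -1.41 in DBP. Each irradiated or bystander array of that line had a higher index than the CTL array of its number. The comparisons with CTL, among them those of *IRS1* above and *PARP14* below, did not include the index. Its part in them was not tested.

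The rest of the pathway was read from lists of known components, with 1 probe per gene, the brightest of those tested. Of its ligands and other receptor chains (*IL4*, *IL13*, *IL2RG* and *IL13RA2*), 1 of 4 passed the background criterion, and it was not called in CTL. Of 11 tested adaptors and PI3 kinase genes, *GAB2* was lower in unirradiated H1299shRAD9, by -0.36 ± 0.10 (SE; limma, adjusted p = 0.0293). Of 11 tested negative regulators, *SOCS2*, a feedback inhibitor of cytokine signaling, was lower, by -0.71 ± 0.18 (limma, adjusted p = 0.0237). Each is 1 called gene of 11 where 14.2% of all probes were called. Median log2 differences in CTL were 0.05 for the adaptors and 0.03 for the negative regulators, against 0.12 over all probes.

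Among 24 genes known to be induced by interleukin-4 or interleukin-13, 7 were tested, and 2 were called between the unirradiated lines, against 14.2% of all probes. *MAOA*, which breaks down monoamines, was lower in H1299shRAD9 by -2.91 ± 0.54 (SE; limma, adjusted p = 0.00706), and it was called in all 5 states, from -3.25 to -2.91. It lay between 1.56 and 2.58 on the H1299 arrays, 0.41 and 0.74 in H1299shRAD9 replicates 1 and 2, and -2.55 and -1.40 in replicates 3, 4 and 5. It was thus lowest in the samples with the highest *STAT6*, but highest in H1299, where *STAT6* was in the middle, so the sets are not in reverse order. In H1299shRAD9 *MAOA* was well above background on 2 (DBP), 3 (BP) and 4 (BN) of 5 arrays, and on all 5 in CTL and DBN. *MUC5AC*, an airway mucin, was higher, by 0.44 ± 0.13 (limma, adjusted p = 0.0313). The median of the list was -0.14.

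Coactivators of STAT6 were all measurable, 6 of 6. *CREBBP*, an acetyltransferase, was higher in H1299shRAD9 by 0.65 ± 0.11 in CTL (SE; limma, adjusted p = 0.00412), 0.79 in BP and 0.63 in BN, and its relative *EP300* by 0.62 in BN (limma, adjusted p = 0.0341). These were 1, 1 and 2 of the 6 coactivators in CTL, BP and BN, where 14.2%, 7.74% and 8.48% of all probes were called. Among the 11 tested negative regulators, *SOCS1* was lower in BP (-0.81, limma, adjusted p = 0.0171). It was dim, well above background on 3 of 5 H1299shRAD9 BP arrays. *SOCS3*, also a negative regulator, was higher in BP (0.45, limma, adjusted p = 0.048) and BN (0.43, limma, adjusted p = 0.0482). In BP 1 of the 11 was thus called higher and 1 lower, and in BN 1 was called higher.

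*PARP14*, an ADP-ribosyltransferase that acts with STAT6, was the only gene of these lists, markers of other cells aside, that was called between irradiated or bystander cells and CTL. In H1299shRAD9 it was higher than CTL by 0.45 ± 0.08 in DBP, 0.48 ± 0.10 in BP and 0.63 ± 0.12 in DBN (SE; limma, adjusted p = 0.0676, 0.0829 and 0.0693), each time in 5 of 5 pairs. In BN the difference was 0.49 (limma, adjusted p = 0.294), in 4 of 5 pairs. All these pairs use the same 5 CTL arrays. In DBP, BP and DBN this was 1 of 6 tested coactivators, where 1.57%, 1.45% and 2.78% of all probes were called. Alternatives were read for the members alone, so the *PARP14* calls were not repeated under them or with a replicate left out. The mean level was 1.03 in H1299shRAD9 CTL and 1.49, 1.52, 1.66 and 1.52 in DBP, BP, DBN and BN. In H1299 CTL it was 1.55, so the higher levels were near that of unirradiated H1299. In H1299 the differences were 0.20, 0.06, -0.26 and 0.00, not called, and those of the lines were not shown to differ (interaction 0.25, 0.42, 0.89 and 0.49; limma, adjusted p = 0.327 in DBN and larger in the others). Of the 4 tested blood cell markers, *CD14* was called lower in H1299shRAD9 DBP (-0.60, limma, adjusted p = 0.0615) and DBN (-0.58, limma, adjusted p = 0.082). The share of all probes called there was 1.57% and 2.78%. In H1299 the *CD14* differences were of like size, -0.49 in DBP and -0.44 in DBN, not called.

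The promoters, 300 bases from RefSeq on GRCh38.p14, were searched for TTCNNNNGAA, the spacing that STAT6 dimers prefer, and TTCNNNGAA, the spacing of most other STATs. Each motif reads the same on both strands. Of 35116 promoters 6.44% hold the first and 7.66% the second. For the members and the lists, only the first-listed promoter of each gene was searched. None of the 9 member promoters searched holds either motif. The members have 14 promoters in all, and the rest were not searched. The shares over all promoters were not limited in this way, so the members cannot be set directly against them. Of 6 coactivator promoters searched, 2 hold the second motif, *SND1* and *PARP14*. That of *PARP14*, shown because it was the gene called after irradiation, is given with the motif in capitals.
PARP14 (chr3:122680789-122680818, plus strand): cctgggagttTTCCAGGAAacgaaagcgaa

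The genes whose levels followed a member most closely over the 50 arrays are given as a description, since all arrays of a line share its cells. For *STAT6* they were *METRNL*, *RXRA* and *ST6GAL1* (r = 0.97, 0.96 and 0.95). *RXRA*, a nuclear receptor, showed a like division into sets, with -5.15 to -3.88 in H1299shRAD9 replicates 1 and 2, 1.11 to 1.74 in replicates 3, 4 and 5, and 0.05 to 1.45 in H1299. In each H1299shRAD9 group it was well above background on only 3 of 5 arrays. For *JAK3* A_24_P59667 they were *FBLN2*, *SEL1L3* and *IRF5* (r = 0.95, 0.95 and 0.94), for *IRS1* A_24_P225679 *PAFAH1B1*, *PDGFC* and *CPE* (r = 0.86, 0.86 and 0.85), and for *IL13RA1* A_24_P280113 *C14orf101*, *C16orf62* and *GNL1* (r = 0.93, 0.92 and 0.91). *TYK2* was most like *IRAK1*, *AP1B1* and *TBL3* (r = 0.91, 0.90 and 0.90) and *JAK1* most like *ACVR1*, *AASDH* and *MBIP* (r = 0.88, 0.84 and 0.83). For *IL4R*, *JAK2* and *IRS2* the closest, *LOC282997*, *C14orf129* and *PNRC1*, reached r = 0.79, 0.80 and 0.83. Between members, by their brightest probes, r was -0.64 for *STAT6* and *IRS1*, 0.50 for *STAT6* and *JAK3*, and 0.71 for *IL13RA1* and *IRS2*.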

How the data were processed

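The authors deposited 1 Agilent Feature Extraction file per array, with processed intensities that are background-subtracted and detrended per the file headers, and a table of their own log2, median-normalized values for 9502 features, used as an alternative. Here log2 of the processed intensity minus the median of each array over non-control probes was taken, outlier spots were left out (733 missing values of probes), and replicate spots were averaged. A probe was tested if it was neither an outlier nor dim (not well above background) on 25% or more of the 50 arrays. Groups came from the sample labels. Lines were compared unpaired, and irradiated groups with CTL by replicate number as a block, with limma 3.58.1 (lmFit, eBayes, Benjamini-Hochberg over all tested probes) in R 4.3.3. *STAT6* and *RAD9A* were compared with exact permutation tests. The p-values measure the spread between these samples.

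The study's methods name paired samples. Same-numbered arrays correlated, after removal of group means, by 0.23 or more in every pair of the H1299shRAD9 comparisons and by 0.27 or more in H1299 DBP and BN, but down to -0.17 and -0.10 in H1299 BP and DBN.

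The members, the lists and the tests were chosen with earlier results of these data known. Genes named are all members with every probe, the called probes of the other lists (at most the 3 largest rises and 3 largest falls per list and comparison), and the 3 genes most correlated with the brightest probe of each member. A member with a pair of tested probes is given by both. Some results of the other lists are not reported here. Gene positions are from the array annotation (hg19).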

Additional observations from a re-analysis of the deposited data

Results flagged for a closer look

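Of the 120 sets of 5 samples given by 12 probes and 10 groups, 9 had 1 sample whose distance to the next, over the whole range, exceeded the Dixon value of 0.71, and chance gives about 1 in 20. Replicate 2 of H1299 was the sample in 4 of them: *JAK3* A_24_P59667 at 2.06 and *TYK2* at 0.14 in BP, and *IRS1* A_24_P225679 at 2.32 and *IRS2* at 2.23 in DBP, the 2 arrays being among the 4 with the lowest 5′ to 3′ index. In the same DBP group, replicate 1 was low for *IL13RA1* A_24_P288685, at 0.33. Replicate 3 of H1299shRAD9 BN stood apart for *IL4R* A_23_P129556, at 4.34, and for *JAK1*, at 2.21. *JAK2* was high in H1299shRAD9 CTL replicate 4, at 2.42, and *STAT6* in H1299 CTL replicate 3, at 1.83. The 2 sets of *STAT6* levels in H1299shRAD9 do not show by this measure, which finds single samples.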

How the results depend on the processing

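Leaving out the H1299shRAD9 replicates by set, and repeating the *IRS1* difference in DBP under each alternative, were chosen after seeing the data. The calls of *JAK3* A_24_P59667 (-2.04 to -0.79) and *IL13RA1* A_24_P288685 (-1.06 to -0.63) between the unirradiated lines were kept under all 22 alternatives, and that of *TYK2* under 12. The 3 called members became 5 with 75th percentile scaling, with normexp background correction and with the authors' processed values, and 2 to 3 with each replicate left out. In the irradiated groups the 5 calls between lines became 8 with 75th percentile scaling, 3 with normexp, 9 with the authors' values, 8 without H1299shRAD9 replicates 3, 4 and 5, and 3 to 4 with each replicate left out. The authors' values hold 8 member probes, the 1.3-fold criterion leaves 6 and no background criterion gives 14, so these counts are not out of 12. The share of all probes called under each alternative is not given, so the counts are not set against it. With a replicate block, although the numbers do not pair samples of the lines (mean correlation -0.06 to 0.06), there were 3 calls in CTL and 1 in the irradiated groups. The single call in irradiated H1299shRAD9 became 0 with no background criterion, the positive and significant mark, the 1.3-fold criterion, all groups in 1 fit, slide as a block, no replicate block, without replicates 1 and 2, without replicates 3, 4 and 5, and with each replicate left out (0 to 0). In H1299 the 0 calls became 1 with the random-variance test at its p threshold alone, and the interactions stayed at 0. In CTL the sign turned for *STAT6* (1.70 from the authors' values, 1.87 without replicates 1 and 2, -1.14 to 0.38 with each replicate left out), *IRS1* A_24_P225679 (-0.061 without replicates 1 and 2), *IRS1* A_24_P802145 (-0.25 with the index, -0.31 without replicates 1 and 2) and *IL13RA1* A_24_P280113 (0.0081 and 0.0084 with a replicate left out, from -0.042, and 0.078 without replicates 3, 4 and 5), none of them called before. The cause was not tested. Slide as a random block could not be fitted for the 4 irradiated line comparisons.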
